A study of Mus musculus with 4 samples.

Results

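Cytochrome P450 families 1 to 4 (Cyp1 to Cyp4) were examined as a group of 75 genes in mouse small intestinal (SI) organoids. A gene was a member if its symbol was Cyp, a family number from 1 to 4, a subfamily letter and a gene number, so named pseudogenes were left out, and the rule took 75 of the 55487 genes in the deposited tables. The members fell into 21 subfamilies, the largest of which were Cyp2c with 15 genes and Cyp4f with 9. A further 36 symbols of these families lay outside the rule, 29 of them pseudogenes and 6 of them protein-coding genes with a longer symbol, such as Cyp2ab1. Within the family the rule used the name alone and no measured value.

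The organoids were grown from mouse intestinal crypts and infected with lentivirus encoding a miRNA mimic control in 1 group and the miR-181a-5p mimic in the other, and both were kept in puromycin at 2 µg/ml. The control group had 2 libraries (replicates 1 and 2) and the miR-181a-5p mimic group had 2 libraries (replicates 3 and 4). Strain, sex and age of the mice were not given in the sources used here, and separate animals or infections within a group were not stated, so p-values measure only the spread between these libraries. Libraries held between 31104884 and 38111731 expected counts, which are RSEM's estimates of reads per gene, with a read that matches several transcripts divided among them.

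P450 enzymes of these families sit in the endoplasmic reticulum, hold a heme group bound through a cysteine, and insert an oxygen atom into drugs, fatty acids, retinoids and steroids with electrons from the reductase Por. In the small intestine they act mainly in enterocytes, the absorptive cells, as a first barrier to swallowed chemicals. Several are classic targets of nuclear receptors: Cyp1a1 of the aryl hydrocarbon receptor, Cyp2b10 of the constitutive androstane receptor (CAR, gene Nr1i3), Cyp3a11 of the pregnane X receptor (Nr1i2) and Cyp4a10 of PPARα.

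The feature that the family shares at the DNA level is the coding stretch around the heme-binding cysteine, which a search of the longest annotated coding sequence, translated in frame, for the core of the P450 cysteine heme-iron ligand signature (fixed phenylalanine, glycine, arginine, cysteine and glycine) found in 72 of 75 members (96.0%) and in 0.298% of 13099 tested genes, members included. It is shown for the members that the results turn on and for the near-identical pairs among them, read 5′ to 3′ on the coding strand of GRCm38 with the codon of the cysteine in capitals. The 6 members that were lower with the mimic held these stretches.
Cyp4v3: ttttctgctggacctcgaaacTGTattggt
Cyp2c38: ttctcagcaggaaaacgggttTGTgctgga
Cyp2c70: ttctcagcaggaagaagagctTGTattgga
Cyp2w1: ttctccgctggtcgccgggtcTGCgttggg
Cyp3a13: tttgggagtggaccaaggaacTGCattggc
Cyp4a10, with the same letters in Cyp4a31 and Cyp4a32: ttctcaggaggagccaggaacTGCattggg

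The stretch of Cyp3a13 lay within 1 exon (chr5:137895267-137895296, minus strand). Each of the other 5 ran across an intron, at chr8:45307107-45308407 (minus strand) for Cyp4v3, chr19:39391093-39392158 (minus strand) for Cyp2c38, chr19:40153738-40156732 (minus strand) for Cyp2c70, chr5:139356738-139356865 (plus strand) for Cyp2w1 and chr4:115529502-115532543 (plus strand) for Cyp4a10. Near-identical copies are shown for a second reason, because likeness over the whole transcript limits how far reads can be told apart. Identity over this stretch alone does not mark such copies, since Cyp2d22 and Cyp2d26 also share it at 78.5% coding identity. The abundant pair Cyp2c65 and Cyp2c66 and the group Cyp2c40, Cyp2c67, Cyp2c68 and Cyp2c69 were each identical over the stretch.
Cyp2c65 and Cyp2c66: ttctcaacaggaaaacggattTGTgtggga
Cyp2c40, Cyp2c67, Cyp2c68 and Cyp2c69: ttctcagcaggaaaacggattTGTgtggga

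SI organoids expressed 27 of the 75 members, counted as at least 1 TPM in at least 2 libraries, and 24 of these reached 1 TPM in all 4. TPM is a level per transcript length and can be compared between genes. With 0.5 TPM in place of 1 TPM the number was 33, and with 5 TPM it was 23. At the other end, 17 members had no count in any library, which allows up to 3 counts per library, or between 0.0782 and 0.0967 CPM (counts scaled to library size), as far as counting error goes. Together the members took between 0.198% and 0.257% of a library's TPM.

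The level of the family was carried by few genes. Cyp2c55, which hydroxylates arachidonic acid, was the highest member in every library, at 448 and 599.8 TPM in the controls and 503 and 518 TPM in the mimic libraries. Cyp2c66 followed at 240.5 and 313 TPM in the controls and 242 and 216 TPM in the mimic libraries, and Cyp2c65 at 216 and 238 TPM and 193 and 197 TPM. Cyp2c66 and Cyp2c65 overlapped in range and cannot be ranked beyond their spread.

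Next in mean level were Cyp3a11 (180.1 TPM over the 4 libraries), the main drug-metabolising Cyp3a enzyme of mouse liver, Cyp2c29 (169 TPM), Cyp2d26 (149 TPM) and Cyp4f14 (148 TPM), which hydroxylates leukotriene B4. All 4 overlapped in range. The CAR target Cyp2b10 averaged 103 TPM, and 11 further members had means between 11.1 and 91.9 TPM. The 5 highest members made up between 54.9% and 61.0% of the members' TPM in a library.

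**Figure D1:**
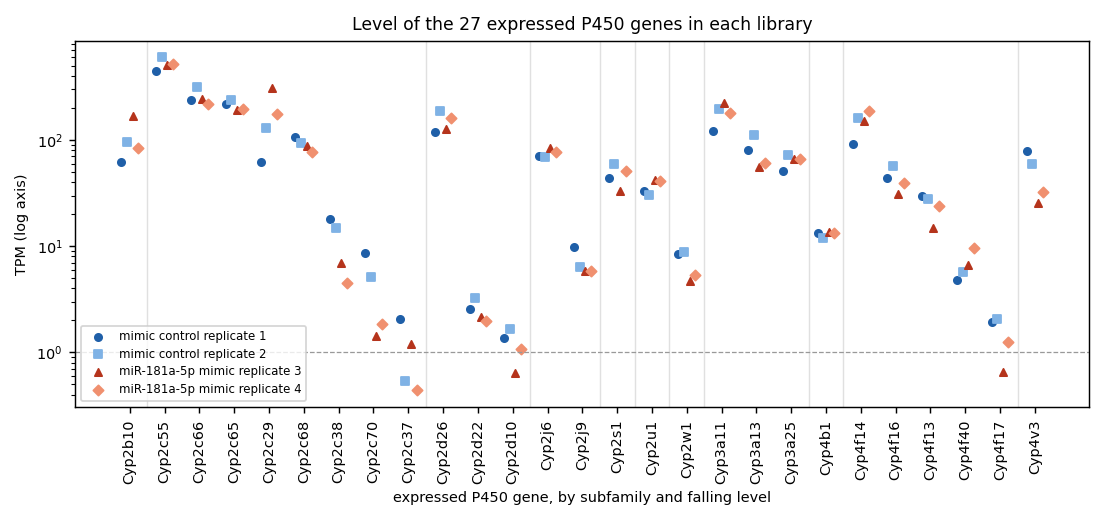
TPM (log axis) of the 27 expressed P450 genes in each of the 4 libraries, grouped by subfamily, with 1 point per library and a dashed line at 1 TPM. Cyp2c55 lies highest in every library, and Cyp2c38, Cyp2c70 and Cyp4v3 show both mimic libraries below both controls.

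Expression was uneven among subfamilies. Of the 21 subfamilies, 11 had an expressed member. In Cyp2c 8 of 15 members were expressed, in Cyp4f 5 of 9, in Cyp3a 3 of 7, in Cyp2d 3 of 8, in Cyp2j 2 of 8 and in Cyp2b 1 of 5. Cyp2s1, Cyp2u1, Cyp2w1, Cyp4b1 and Cyp4v3, each the lone listed member of its subfamily, were also expressed. No member of Cyp1a, Cyp1b, Cyp2a, Cyp2e, Cyp2f, Cyp2g, Cyp2r, Cyp2t, Cyp4a or Cyp4x met the limit. Cyp2e1 and Cyp1a2, known from liver, had at most 20.2 and 1 counts in a library.

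Summed over its members, Cyp2c gave 1104 and 1397 TPM in the controls and 1346 and 1193 TPM in the mimic libraries, between 53.2% and 55.9% of the TPM of all 75 members. Cyp3a gave 255 and 380 TPM in the controls and 346 and 308 TPM in the mimic libraries. Cyp4f gave 174 and 254 TPM and 206 and 263 TPM. In each of these 3 subfamilies the groups overlapped.

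Over all members the sum was 1979 and 2570 TPM in the controls and 2409 and 2241 TPM in the mimic libraries, a log2 ratio of mimic to control of 0.03. The mimic libraries lay between the 2 controls. In CPM, summed over the tested members, the ratio was -0.05, so its sign depended on the unit. In TPM it was 0.23 without control replicate 2 and -0.14 without control replicate 1, so the sign also depended on a single control library. Over members with whole counts in every library alone, it was -0.29. That subset leaves out Cyp2c55 and the other most abundant members. Its highest gene was Cyp3a13, which ranked 10 among all members by mean TPM and was itself lower with the mimic.

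**Figure D2:**
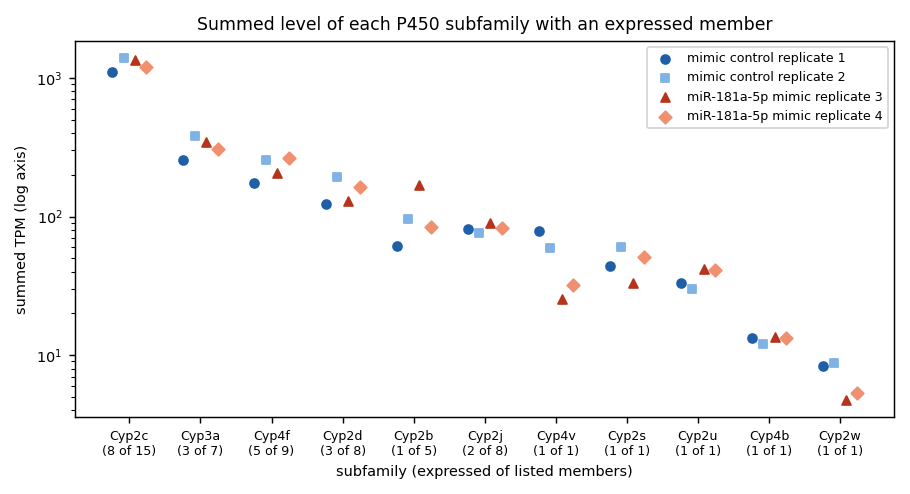
Summed TPM (log axis) of the 11 P450 subfamilies with an expressed member, 1 point per library, with the number of expressed and listed members under each name. The Cyp2c sums stand at 1104 TPM or more in every library, and among the subfamilies shown Cyp4v and Cyp2w are those in which both mimic libraries lie below both controls.

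Within subfamilies a leading gene often took most of the level. Cyp2d26 held between 96.4% and 97.6% of the Cyp2d level in a library, Cyp2j6, a fatty acid epoxygenase of the intestine, held between 87.6% and 93.0% of Cyp2j, and Cyp2b10 held all of Cyp2b. The share of Cyp2d26 was 96.4% and 97.2% in the controls and 97.5% and 97.6% in the mimic libraries. That of Cyp2j6 was 87.6% and 91.1% in the controls and 93.0% and 92.7% in the mimic libraries. In Cyp3a, Cyp2c and Cyp4f the shares of some genes differed more widely between the groups while the sums overlapped. Cyp3a11 made up 47.9% and 51.2% of the Cyp3a level in the controls and 64.5% and 58.6% in the mimic libraries, whereas Cyp3a13 made up 31.4% and 29.5% in the controls and 15.99% and 19.5% in the mimic libraries.

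The share of Cyp2c29 within Cyp2c was 5.57% and 9.25% in the controls and 22.8% and 14.8% in the mimic libraries. The share of Cyp4f14 within Cyp4f was 52.9% and 63.1% in the controls and 73.8% and 71.6% in the mimic libraries, and that of Cyp4f16 was 25.5% and 22.4% in the controls and 15.1% and 14.8% in the mimic libraries. For Cyp3a11, Cyp3a13, Cyp2c29, Cyp4f14 and Cyp4f16 the shares of the groups did not overlap. This was so for 18 of the 21 expressed members with another detected member in their subfamily. Shares within a subfamily add up to a whole, so a shift in a gene moves the others, and these are not separate results. For levels, groups did not overlap in 58.4% of all tested genes. The shares are descriptions and were not tested. The smallest p that an exact permutation test of 2 libraries against 2 allows is 0.333.

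To ask which members differed with the miR-181a-5p mimic, edgeR's quasi-likelihood test was run on all genes with enough counts, and 38 members, all 27 expressed ones among them, could be tested. Of these, 6 were lower with the mimic at an adjusted p under 0.05 (Cyp4v3, Cyp2c38, Cyp2c70, Cyp2w1, Cyp3a13 and Cyp4a10) and 0 were higher. The share was 15.8% of tested members, beside 3.57% of all 17155 tested genes in either direction, 2.29% lower and 1.28% higher. Among the members 4 were also lower by at least 2-fold (Cyp4v3, Cyp2c38, Cyp2c70 and Cyp4a10), where the background was 1.47% lower and 0.589% higher. Cyp4a10 had enough counts for the test through the controls alone (0.99 and 0.45 CPM, beside 0.096 and 0.028 CPM in the mimic libraries). Such a gene could hardly come out higher. With at least 10 counts required in every library, it was not tested. Of the 34 members then tested, 5 were lower, 3 of them by at least 2-fold, and 0 higher. Over all genes 555 of 15573 passed in that fit.

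At an unadjusted p under 0.05, 14 members were lower and 4 higher, beside 13% and 11.8% of all tested genes (24.8% in either direction). Groups did not overlap for 18 members that were lower and 7 that were higher with the mimic, beside 29.5% and 28.9% of all tested genes (58.4% in either direction). The median log2 fold change was -0.36 over the 38 tested members and -0.01 over all tested genes, and 24 members lay below 0. The 37 members not tested had at most 27.2 counts in all 4 libraries together.

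The number of calls depended on the test and on single libraries. edgeR's exact test called 10 members lower and 2 higher (Cyp2c29 and Cyp4f39) at the same limit, DESeq2 called 7 lower and 0 higher, and limma on log2(TPM + 1) called 0 in either direction. Over all genes these tests called 1788 of 17155, 1299 of 29212 and 75 of 14035. For DESeq2 the 29212 genes are those with any count, and its own filter can leave genes of low count without an adjusted p. Without control replicate 2 the numbers were 10 lower and 4 higher, without mimic replicate 3 they were 3 lower and 0 higher, and without mimic replicate 4 there were 2 higher. Over all genes, 2365 of 18257, 373 of 18318 and 825 of 17907 passed in these 3 fits.

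**Figure D3:**
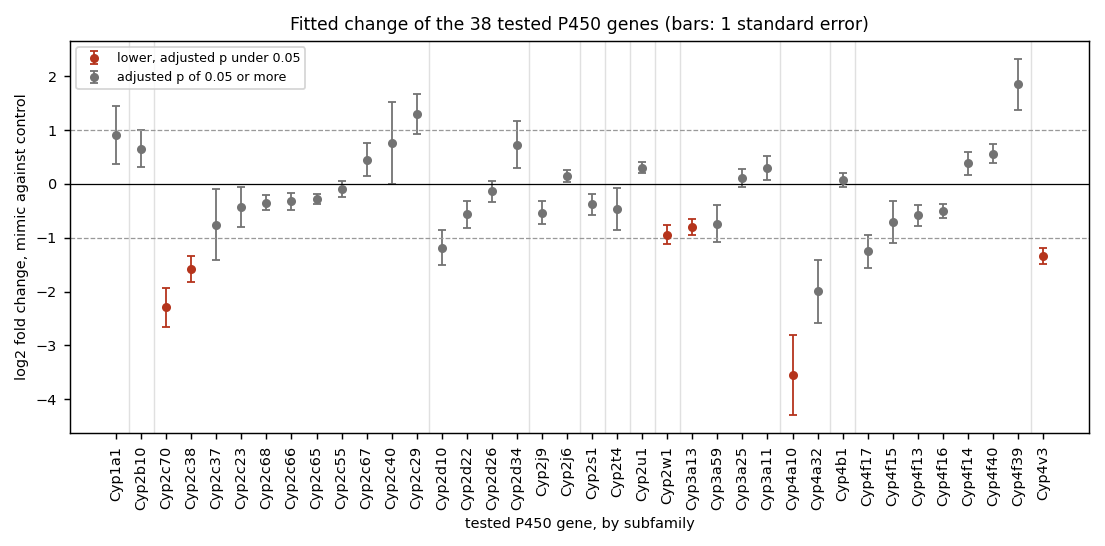
Fitted log2 fold change (miR-181a-5p mimic against mimic control) of the 38 tested P450 genes by subfamily, with bars of 1 standard error and dashed lines at a 2-fold difference. The 6 red points, from -0.80 for Cyp3a13 to -3.55 for Cyp4a10, passed the adjusted p of 0.05, and no higher point did.

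Cyp4v3 is the mouse counterpart of human CYP4V2, a fatty acid ω-hydroxylase whose loss causes a retinal dystrophy. Its level was 78.4 and 59.5 TPM in the controls and 25.3 and 32.1 TPM in the mimic libraries. Both mimic libraries were well below both controls, and the gene was 2.53-fold lower (log2 fold change -1.34, SE 0.15, adjusted p = 0.00908). It was past the limit in 12 of 15 alternative fits, the exceptions being the 3 fits on TPM. A predicted gene, Gm45753, overlaps Cyp4v3 on the same strand and held 5.81 counts on average, and 5.77% of the 100-base stretches of Cyp4v3 are shared with it.

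Both Cyp2c members that fell lie in the Cyp2c cluster of chromosome 19. Cyp2c38, an arachidonic acid epoxygenase, had 18.1 and 14.9 TPM in the controls and 6.97 and 4.49 TPM in the mimic libraries, and was 2.99-fold lower (log2 fold change -1.58, SE 0.24, adjusted p = 0.0194). Cyp2c70, which makes muricholic acids in mouse liver, had 8.66 and 5.08 TPM in the controls and 1.42 and 1.86 TPM in the mimic libraries. It was 4.89-fold lower (log2 fold change -2.29, SE 0.36, adjusted p = 0.0236), and the groups were far apart for both genes. Both passed in 11 of 15 alternative fits, among them each that left out a single library, and not in the fit without a filter (adjusted p = 0.0519 for Cyp2c38 and 0.064 for Cyp2c70) or the 3 fits on TPM.

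Cyp2w1, an enzyme known from fetal gut and colon tumours, had 8.41 and 8.74 TPM in the controls and 4.72 and 5.33 TPM in the mimic libraries, and was 1.93-fold lower (log2 fold change -0.95, SE 0.18, adjusted p = 0.0377). Cyp3a13, the Cyp3a enzyme most typical of the intestine, had 80.0 and 112 TPM in the controls and 55.4 and 60.1 TPM in the mimic libraries, and was 1.74-fold lower (log2 fold change -0.80, SE 0.15, adjusted p = 0.0388). The groups did not overlap for either gene. Each passed in 10 of 15 alternative fits. Neither passed without mimic replicate 3 (adjusted p = 0.139 for Cyp2w1 and 0.0618 for Cyp3a13), without a filter (0.0755 and 0.0929) or in the 3 fits on TPM.

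Cyp4a10, a fatty acid ω-hydroxylase and textbook PPARα target, was scarcely expressed. Its expected counts were 37.7 and 13.6 in the controls and 3 and 1.17 in the mimic libraries. The pooled rounded counts of 52 and 4 gave a ratio of control to mimic of 12.5 with an exact 95% interval of 4.62 to 47.8 for counting error alone. Cyp4a10 passed in 5 of the 11 alternative fits that gave it an adjusted p, and DESeq2 did not call it. The fitted log2 fold change (-3.55, SE 0.74, adjusted p = 0.0471) depends on how so few counts are treated. It was -2.85 (adjusted p = 0.117) without control replicate 1, -4.55 (0.0612) without mimic replicate 3 and -2.90 (0.11) without mimic replicate 4.

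Its near copy Cyp4a32 had 24.3 and 10.3 expected counts in the controls and 4 and 3.83 in the mimic libraries (log2 fold change -1.99, adjusted p = 0.0998). Like Cyp4a10, it had enough counts for the test through the controls alone. The coding sequences of Cyp4a10 and Cyp4a32 were 97.2% identical. Summed over all 5 Cyp4a genes, where the division of reads between copies does not matter, the level was 1.24 and 0.64 TPM in the controls and 0.17 and 0.12 TPM in the mimic libraries.

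The most abundant Cyp2c genes did not pass the limit. For Cyp2c55 the log2 fold change was -0.10 (SE 0.15, adjusted p = 0.720), for Cyp2c66 it was -0.33 (SE 0.15, adjusted p = 0.228), for Cyp2c65 -0.28 (SE 0.10, adjusted p = 0.146) and for Cyp2c68 -0.35 (SE 0.13, adjusted p = 0.167). Cyp2c29, a CAR-inducible enzyme in liver, had higher values in both mimic libraries. It had 61.45 and 129 TPM in the controls and 306 and 177 TPM in the mimic libraries, and the groups did not overlap. Its log2 fold change of 1.30 (SE 0.37, adjusted p = 0.0956) missed the limit with all 4 libraries and was 1.93 (adjusted p = 0.004) without control replicate 2 and 1.69 (adjusted p = 0.00567) without mimic replicate 4.

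Along chromosome 19 the 14 genes of the cluster run from Cyp2c55 (chr19:39007019-39042693) to Cyp2c70 (chr19:40153353-40187333), and Cyp2c23 lies apart from them. The first 4 genes in this order, Cyp2c55, Cyp2c65, Cyp2c66 and Cyp2c29, were the 4 highest of the subfamily by mean TPM. Cyp2c38 is the neighbour of Cyp2c29, and Cyp2c70 ends the cluster. Of the 11 tested Cyp2c genes 8 lay below 0 and 3 above, with a median log2 fold change of -0.33.

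**Figure D4:**
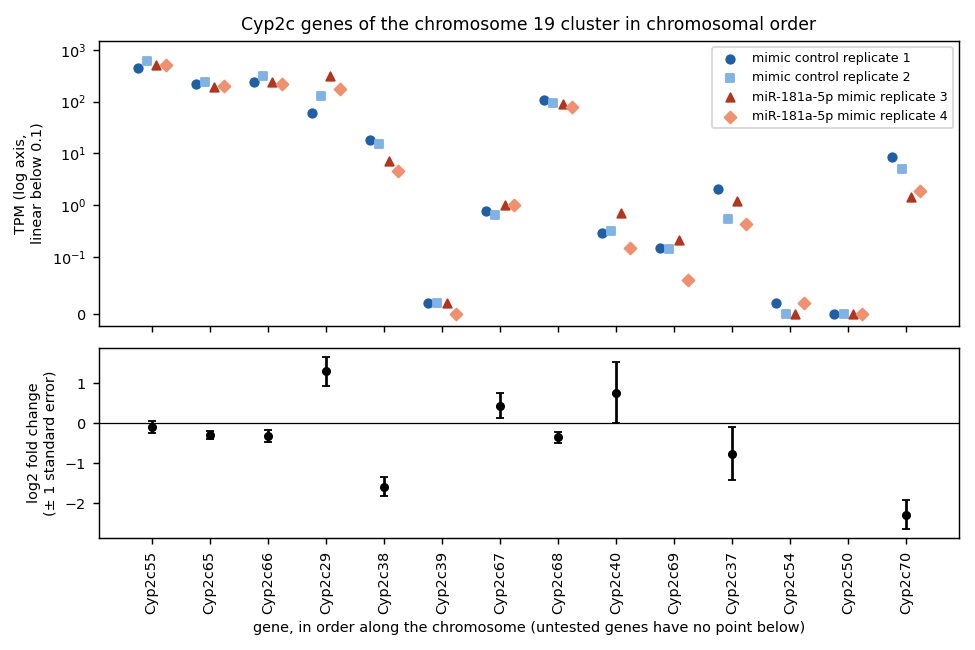
The upper panel gives TPM (log axis, linear below 0.1) of the 14 genes of the chromosome 19 Cyp2c cluster in chromosomal order, 1 point per library, and the lower panel gives the fitted log2 fold change with 1 standard error. Neighbouring genes differ widely in level, and Cyp2c29 (1.30) and Cyp2c38 (-1.58), which lie side by side, differ in direction.

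The second large cluster, on chromosome 7, holds 13 members from Cyp2s1 (chr7:25802475-25816913) to Cyp2t4 (chr7:27153714-27158668), and only its first 2 genes, Cyp2s1 and Cyp2b10, were expressed. Cyp2b10 had 61.7 and 96.1 TPM in the controls and 169 and 83.8 TPM in the mimic libraries, so the groups overlapped (log2 fold change 0.66, SE 0.35, adjusted p = 0.281). Mimic replicate 3 alone was high, and the log2 fold change was -0.02 without it and 1.12 (adjusted p = 0.0094) without mimic replicate 4. Cyp2s1, an epithelial enzyme of retinoid and eicosanoid metabolism, had 44.0 and 59.9 TPM in the controls and 33.0 and 51.4 TPM in the mimic libraries (log2 fold change -0.38, adjusted p = 0.272).

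In Cyp3a, Cyp3a11 had 122 and 194 TPM in the controls and 223 and 180.4 TPM in the mimic libraries (log2 fold change 0.29, SE 0.22, adjusted p = 0.447), and Cyp3a25 had 51.2 and 72.3 TPM and 66.7 and 66.7 TPM (log2 fold change 0.12, SE 0.17, adjusted p = 0.709). Neither separated the groups. When single libraries were left out, the log2 fold change of Cyp3a11 ran from -0.0029 to 0.66, the highest without control replicate 2. Cyp3a13, the member that fell, lies on chromosome 5 apart from the 6 other Cyp3a genes (chr5:137892932-137921619).

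None of the 7 tested Cyp4f genes passed the limit, and their log2 fold changes ran from -1.25 for Cyp4f17 (adjusted p = 0.0703) to 1.85 for Cyp4f39 (adjusted p = 0.0767). Cyp4f14 was the most abundant, at 91.9 and 160.4 TPM in the controls and 152 and 188 TPM in the mimic libraries (log2 fold change 0.38, adjusted p = 0.321). Cyp4f16 had 44.3 and 56.9 TPM in the controls and 31.1 and 39.1 TPM in the mimic libraries (log2 fold change -0.51, adjusted p = 0.0794), and Cyp4f13 had 29.8 and 28.0 TPM and 14.7 and 23.8 TPM (log2 fold change -0.58, adjusted p = 0.126). Both had lower values in each mimic library. In alternatives, Cyp4f16 passed by the exact test (adjusted p = 0.0165), by DESeq2 (0.0392) and without control replicate 1 (0.0208), Cyp4f13 passed without mimic replicate 4 (0.0195), and Cyp4f14 was higher without control replicate 2 (0.00312). Cyp4f17 passed by the exact test, by DESeq2, without control replicate 2 and without mimic replicate 4.

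The leading genes of the other subfamilies showed small differences. Cyp2d26 had a log2 fold change of -0.14 (SE 0.20, adjusted p = 0.704), Cyp2j6 of 0.14 (SE 0.11, adjusted p = 0.473) and Cyp4b1, which hydroxylates medium-chain fatty acids, of 0.07 (SE 0.12, adjusted p = 0.758). Cyp2u1, a long-chain fatty acid hydroxylase, had 33.0 and 30.1 TPM in the controls and 42.0 and 40.9 TPM in the mimic libraries (log2 fold change 0.30, SE 0.10, adjusted p = 0.130). The aryl hydrocarbon receptor target Cyp1a1 had 18, 61, 57 and 91 expected counts in control replicates 1 and 2 and mimic replicates 3 and 4, which overlapped (log2 fold change 0.91, adjusted p = 0.335).

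Paralogs share sequence in much of the family, and RSEM divides a read that matches several transcripts. Expected counts of 28 of the 38 tested members departed from a whole number by more than 0.001 in at least 1 library, and 9 of these 28 shared no stretch of 100 bases with another gene, so fractions alone do not mark a paralog. Among the 6 lower members, Cyp2c70, Cyp2w1 and Cyp3a13 had whole counts in every library. No stretch of 100 bases, the read length, was shared with another annotated gene in 32 members, 13 of them expressed, Cyp2c55, Cyp2c38 and Cyp4f14 among them.

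More than 5% of the stretches were shared in 7 expressed members. Cyp2c68 shared 19.8%, mostly with Cyp2c40, to which its coding sequence was 98.1% identical, and Cyp2d10 shared 11.7%. Cyp2c65 shared 7.82% and Cyp2c66 7.35%, all with each other (coding identity 96.3%), Cyp3a25 shared 6.79% with Cyp3a59 (97.5%), and Cyp4f16 shared 5.95%, almost all with Cyp4f37. Levels of these members relative to their copies are therefore uncertain. Cyp2c40, Cyp2c67 and Cyp2c69, with between 23.7% and 35.4% shared, were under the limit for expression.

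Some members also overlap other genes. Cyp2t4 and Cyp4f18 lie opposite the protein-coding genes Egln2 and Zfp961, and Cyp2u1 and Cyp2s1 opposite non-coding genes or a pseudogene. Overlap was taken over whole gene bodies, introns included. Strand use in counting was not stated, so how far reads of opposite genes were told apart is not known. Cyp4f18 had at most 1 count in a library, beside a mean of 1057.5 for Zfp961. Cyp2t4 had between 17 and 33 counts, beside a mean of 1557.5 for Egln2.

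**Figure D5:**
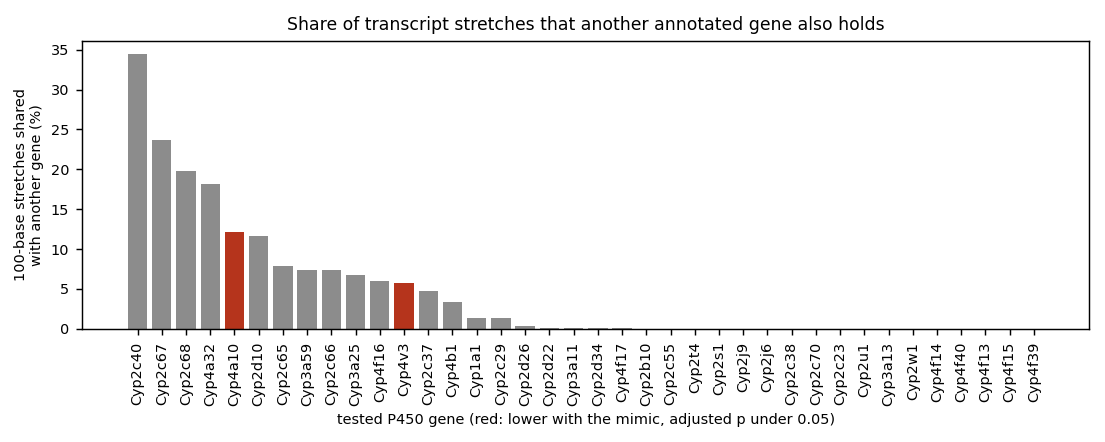
Percentage of the 100-base stretches of each of the 38 tested P450 genes that another annotated gene also holds, with the 6 members that fell in red. Cyp4a10 (12.2%) and Cyp4v3 (5.77%) are the members that fell with any shared stretch.

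Because the mimic supplies miR-181a-5p, matches to its seed were sought in the members. The mature miRNA of 23 bases is shown with the seed, bases 2 to 8, in capitals, as RefSeq gives it.
mmu-miR-181a-5p: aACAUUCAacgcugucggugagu

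The matching 7 bases, TGAATGT, occurred in the longest annotated 3′ UTR of 2 of 36 tested members with a 3′ UTR of at least 50 bases (5.56%), beside 19.1% of 12913 tested genes. The 2 members were Cyp2c55 and Cyp4b1, neither of which passed the test. Their sites are shown with the match in capitals, at chr19:39042633-39042639 (plus strand) and chr4:115624865-115624871 (minus strand).
Cyp2c55: ttttacctattTGAATGTggatttgtaaa
Cyp4b1: caaatatttgcTGAATGTttccctgtctt

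Of the 6 lower members, 5 had such a 3′ UTR and 0 held the 7 bases in it. Cyp2w1 was the member without one. In coding sequence the 7 bases occurred in 2 of the 36 members (Cyp2d22 and Cyp2j6), or 5.56%, beside 10.4% of tested genes. Only the sense strand of the transcript was searched, and the letters of a match are a description and not a site of action.

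The electron partners and regulators of P450 enzymes and the neighbouring enzymes of drug metabolism were taken from 7 lists with 80 genes, of which 65 were tested, 7 fell and 0 rose, beside 2.29% and 1.28% of all tested genes. edgeR's exact test called 12 of them lower and 1 higher, DESeq2 called 10 lower and 1 higher, and the fits on TPM called 0. With at least 10 counts required in every library, which leaves out Pdk4, 6 were lower and 0 higher. Without control replicate 2 the numbers were 11 lower and 6 higher. The median log2 fold change of the 65 genes was -0.13, beside -0.01 over all tested genes.

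None of the 5 electron transfer partners passed. Por, the reductase, had 97.1 and 144 TPM in the controls and 103 and 132 TPM in the mimic libraries (log2 fold change -0.10, adjusted p = 0.754), and cytochrome b5 (Cyb5a) had a log2 fold change of -0.06 (adjusted p = 0.813). Of the 9 genes of heme synthesis and degradation none passed, and Alas1, the first enzyme of heme synthesis, stood at 0.01 (adjusted p = 0.967). None of the 7 tested P450 genes of families 5 and above passed either, though 6 lay below 0 and 1 above (median log2 fold change -0.59).

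Among 15 receptors and transcription factors only Nr1i3, which encodes CAR, fell, from 26.5 and 25.0 TPM in the controls to 15.7 and 16.4 TPM in the mimic libraries (log2 fold change -0.69, SE 0.13, adjusted p = 0.0353). Its targets Cyp2b10 and Cyp2c29 had log2 fold changes of 0.66 and 1.30, neither past the limit. The PXR gene Nr1i2 was at 0.09 (adjusted p = 0.620), Ahr at 0.22 (adjusted p = 0.402) and Ppara at 0.21 (adjusted p = 0.494).

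Of 11 further PPAR target genes 3 fell. Pdk4, a kinase that inhibits pyruvate dehydrogenase, went from 3.74 and 2.19 TPM to 0.06 and 0.15 TPM (log2 fold change -4.80, adjusted p = 0.00869). Its expected counts were 302 and 119 in the controls and 5 and 9 in the mimic libraries. Pdk4 thus had enough counts for the test through the controls alone and could hardly come out higher. Angptl4, an inhibitor of lipoprotein lipase, had a log2 fold change of -0.90 (adjusted p = 0.0150). The 8 that did not pass, Cpt1a among them, had log2 fold changes between -0.22 and 0.18.

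Of 15 tested phase I enzymes outside the P450 family 3 fell. Ephx2, the soluble hydrolase of the epoxides that Cyp2c and Cyp2j enzymes make from fatty acids, had 58.7 and 69.3 TPM in the controls and 29.99 and 35.5 TPM in the mimic libraries (log2 fold change -1.04, SE 0.11, adjusted p = 0.00812). The carboxylesterases Ces1g (log2 fold change -2.44, adjusted p = 0.0469) and Ces2b (-1.67, adjusted p = 0.0496) fell from low levels, at most 2.2 TPM in a library.

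The labelled cell type was checked with marker lists. The 6 epithelial markers summed to between 2500 and 2969 TPM, and leukocyte markers to at most 0.6 TPM. Mesenchymal markers summed to between 2.33 and 6.92 TPM, with Col1a2, Col3a1 and Dcn at 0. Of 5 hepatocyte markers 4 were under 1 TPM in every library and Ttr held most of their sum, while Alb was at most 0.26 TPM.

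Enterocyte markers are given beside the P450 genes, whose cell type was not measured in these bulk libraries. Of 12 such markers 1 fell and 0 rose, with a median log2 fold change of -0.34 and sums of 3282 and 4607 TPM in the controls and 2841 and 2802 TPM in the mimic libraries. Of 5 markers of the proximal small intestine 1 fell, with 1 above 0 and 4 below (median log2 fold change -0.91). Of 4 distal markers 3 were tested, all above 0 (median log2 fold change 0.46) with none past the limit. None of the tested goblet, enteroendocrine or tuft cell markers passed (median log2 fold changes 0.15, -0.08 and -0.07). Of 4 stem cell markers 1 fell (Lgr5, log2 fold change -1.38, adjusted p = 0.0369), with 2 above 0 and 2 below (median log2 fold change -0.14). The 5 Paneth cell markers all lay below 0 (median log2 fold change -0.80) with none past the limit, and summed to 1803 TPM in control replicate 1 and to between 747 and 959 TPM in the other 3 libraries. The part of such shifts in the lower P450 genes was not tested, and in bulk RNA fewer cells of a type and less RNA per cell cannot be told apart.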

How the data were processed

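The RNA-seq libraries of 2 mimic control and 2 miR-181a-5p mimic cultures were analysed. Reads of 100 cycles from 1 end were trimmed by the authors (Trimmomatic) and quantified against GRCm38 with RSEM, and they deposited expected counts without normalization and TPM per gene. The supplemental methods describe depletion of ribosomal RNA and the labels poly(A) selection. In each deposited table, 3 columns matched no sample and were not used. The family and the lists were chosen for study with earlier results of these data known, and the members of the family by name. Symbols and coordinates came from GENCODE release 21 for mouse (GRCm38) and miRNA sequence from RefSeq.

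Rounded expected counts went into edgeR 4.0.16 (R 4.3.3) with filterByExpr, TMM, glmQLFit and glmQLFTest, and p-values of 17155 genes were adjusted by Benjamini-Hochberg. A standard error is the log2 fold change divided by the root of F. The steps were tested on simulated data. With 2 libraries per group, and 2 residual degrees of freedom, precision is limited by the number of libraries and, for members with few counts, by depth. Intervals and limits for a count of 0 cover counting error only.

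Named members were those past an adjusted p of 0.05, the highest of each expressed subfamily and those with a mean of at least 10 TPM, with list genes past an adjusted p of 0.05. Values of some list genes are not reported here. Cyp1a1, Cyp2d10, Cyp2d22, Cyp4a32, Cyp4f17, Cyp4f39, the marker genes and other genes were named after their values were seen. Alternatives were edgeR's exact test, DESeq2 1.42.0, RLE or no factors, no filter or at least 10 counts in every library, a robust fit, limma 3.58.1 on log2 TPM (pseudocount 1 or 0.1, genes of 1 TPM or more in 2 libraries, or pseudocount 1 unfiltered; folds of low genes are understated), and leaving out each library. The legacy form of the quasi-likelihood fit was added after seeing the data. When a library was left out, the lone one was assumed to vary like the other group.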

Additional observations from a re-analysis of the deposited data

How the results depend on the processing

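Results rested on 4 libraries. The exact test gave 7 members lower and 2 higher by at least 2-fold, 10 lower and 2 higher by adjusted p alone, and 12 partner genes lower and 1 higher, and DESeq2 gave 10 partner genes lower and 1 higher. Without a filter on low counts, which raised the number of genes tested to 29212, 1 member (Cyp4v3) was lower under either rule, and 4 partner genes. The fits on TPM, log2(TPM + 1) with and without a filter and log2(TPM + 0.1), gave 0 members and 0 partner genes lower. Leaving out single libraries gave 3 to 7 members lower and 0 to 2 higher by at least 2-fold, 3 to 10 lower and 0 to 4 higher by adjusted p, and 7 to 11 partner genes lower and 0 to 6 higher. The largest counts came without control replicate 2. The log2 ratio of summed TPM ran from -0.14 to 0.23 when single libraries were left out and was -0.29 over members with whole counts. Leaving out single libraries turned the sign of Cyp2b10 (-0.021 to 1.12), Cyp2c55 (-0.29 to 0.12), Cyp2d26 (-0.44 to 0.24), Cyp3a11 (-0.0029 to 0.66) and Cyp3a25 (-0.13 to 0.40), none of which had passed with all 4 libraries. The cause was not tested. With library totals in place of factors Cyp4a10 had an adjusted p of 0.0502, and with at least 10 counts in every library it was not tested. No paired analysis was possible because the groups share no replicate numbers.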
